A study of Mus musculus with 9 samples.

Results

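The comparison set the hearts of both phosphofructokinase 2 (PFK2) transgenic mouse lines, taken as 1 group of 6, against the hearts of 3 wild-type mice, so that all 9 hearts of the series entered it. It asks what the hearts of both lines share, although the transgenes change opposite activities of the same enzyme. The tested hearts came from 3 GlycoLo mice, which carry a kinase-deficient PFK2 in the heart, and from 3 GlycoHi mice, which carry a phosphatase-deficient PFK2 in the heart. The 3 wild-type (WT) mice carried neither form. All mice were FVB males of 15 weeks, no treatment is named, and each mouse gave 1 heart and 1 Affymetrix array. Hearts were grouped by the genotype label alone, and no measured value entered the grouping. The comparison itself was chosen with earlier results of these data known. The promoter that drives the transgenes, the number of founders behind each line and the litters of the mice are not stated in the labels. Each genotype is therefore known from 3 mice only, and effects of a line's insertion or origin cannot be told apart from those of its transgene.

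PFK2 is 1 protein with a kinase and a phosphatase. The kinase makes fructose 2,6-bisphosphate and the phosphatase removes it. This sugar phosphate activates phosphofructokinase 1, the committed step of glycolysis. A form without kinase activity therefore lowers the activator, and a form without phosphatase activity raises it. The adult heart takes most of its energy from fatty acids and uses glucose, lactate, ketone bodies and amino acids beside them.

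Values are log2 RMA values, in which a difference of 1 is a 2-fold change, and each difference is transgenic minus WT with the standard error of the fit. A probe set was called at a Benjamini-Hochberg adjusted p under 0.05 in limma's 2-group fit over 45037 probe sets. In that fit 31 probe sets were called (0.0688% of those tested), of which 11 were higher in transgenic hearts (0.0244%) and 20 lower (0.0444%). Of these, 25 carried 1 gene symbol, 9 higher and 16 lower, while 1 carried several symbols and 5 are unnamed here. None of the 31 had overlapping values in the 6 transgenic and the 3 WT hearts, a separation seen in 5.27% of all tested probe sets (2.73% higher, 2.54% lower). Among 15792 brighter probe sets, those with a mean log2 value of at least 6 in a genotype, the share was 10%, 5.36% higher and 4.67% lower, and among those with 1 symbol it was 5.6%. Most gene list members are of the brighter kind. The gene lists were chosen with earlier results of these data known, so counts and shares of their members describe these hearts and test nothing. The median absolute difference of the called probe sets was 0.53, and 6 of them differed by 1 or more. Before adjustment, 4444 probe sets had a p under 0.05.

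Most of the variation in these hearts did not lie between the pooled transgenic hearts and WT. Over all probe sets, that difference held 20.6% of the sum of squares, the difference between the lines 23.9%, and mice of the same genotype the remaining 55.5%. The last share is spread over 6 degrees of freedom and each of the others over 1, so the shares do not rank these sources. For the called probe sets the median shares were 90.1% for the pooled difference and 1.20% for the difference between the lines. The 2-group fit counts a line difference as spread, so its calls favour probe sets alike in both lines. A small line share, and few of these probe sets called between the lines, therefore follow in part from that choice. Between GlycoHi and GlycoLo hearts 771 probe sets were called (1.71%), 431 higher (0.957%) and 340 lower (0.755%). Of the 31 pooled calls, Fam101a was the 1 also called between the lines. A fit with 3 genotypes, in which the mean of both lines was set against WT and the line difference left the error, called 326 probe sets (0.724%), 153 higher (0.34%) and 173 lower (0.384%), with all 31 among them. The array medians lay between 4.76 and 4.80, and the correlation of any pair of arrays, across probe sets, was 0.994 to 0.997.

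**Figure D1:**
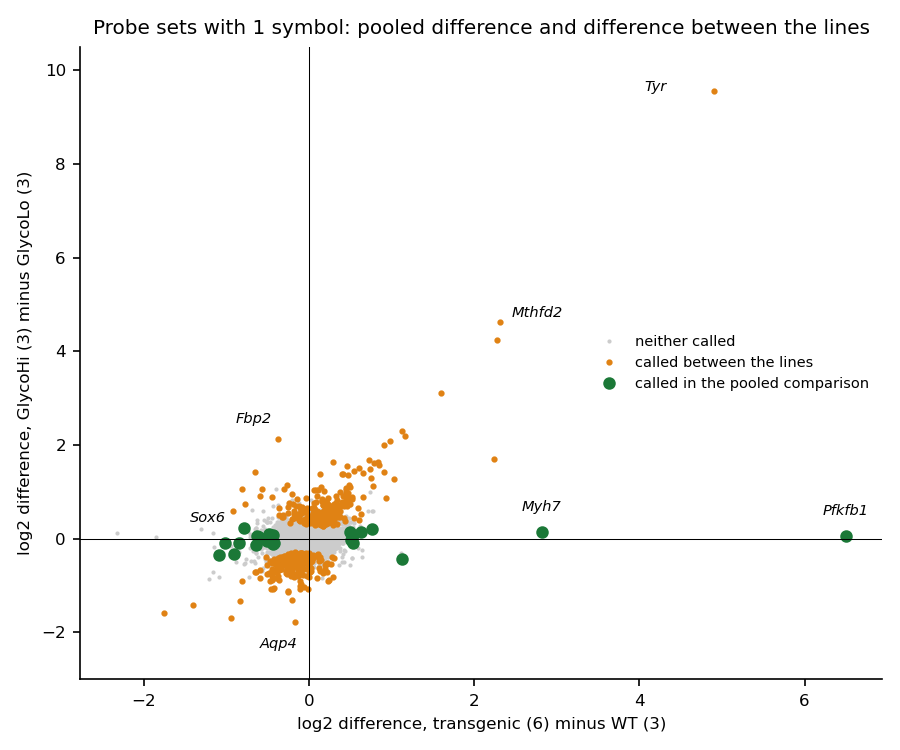
Each point is a probe set with 1 gene symbol; the x axis is the log2 difference of the 6 transgenic hearts from the 3 WT hearts, the y axis the log2 difference of the 3 GlycoHi from the 3 GlycoLo hearts. The green points, called in the pooled comparison, lie near 0 on the y axis (Pfkfb1 at 6.50 and 0.06, Myh7 at 2.82 and 0.14), while Tyr, Mthfd2 and Fbp2 (orange, called between the lines) lie far from it. The pooled fit counts a line difference as spread and so favours points near 0 on the y axis.

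Pfkfb1, which encodes the liver isoform of PFK2, was the most strongly raised gene of the pooled hearts. Its level was 14.34, 14.37 and 14.37 in the GlycoLo hearts and 14.43, 14.41 and 14.40 in the GlycoHi hearts, against 7.97, 7.74 and 7.95 in the WT hearts. All 6 transgenic hearts were alike and lay far above WT. The pooled difference was 6.50 ± 0.06 (adjusted p = 8.82e-14), a 90.3-fold rise. Whether this probe set reads the transgene's RNA was not tested, since the transgene's sequence was not used here, and a fold that ends this close to the array's ceiling can be understated.

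Of the other PFK2 genes, Pfkfb3 rose and Pfkfb2 and Pfkfb4 were not called. Pfkfb3, the inducible isoform with a strong kinase, rose by 0.53 ± 0.07 (adjusted p = 0.029). Its transgenic values ran over 5.40, 5.49 and 5.52 (lowest, median and highest), against 5.13, 4.82 and 4.87 in WT. All 6 transgenic hearts lay above the WT hearts, at a low level that was at the 59.6th percentile of the transgenic arrays. The rise was close in size in the lines, at 0.50 in GlycoLo and 0.57 in GlycoHi. Pfkfb2, the main cardiac isoform, differed by 0.27 ± 0.13 (adjusted p = 0.552), and Pfkfb4, a testis isoform, by 0.02 ± 0.10 (adjusted p = 0.970). Both had overlapping groups.

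Myh7 encodes the slow beta myosin heavy chain, which the mouse ventricle makes before birth and largely replaces with the fast alpha chain of Myh6 afterwards. It was the most strongly raised gene besides Pfkfb1. Myh7 stood at 13.80, 13.71 and 13.80 in the GlycoLo hearts and at 13.82, 13.95 and 13.95 in the GlycoHi hearts, against 10.64, 11.77 and 10.65 in the WT hearts. The transgenic hearts were high and closely grouped, and the highest WT heart was still well below the lowest of them. The pooled rise was 2.82 ± 0.20 (adjusted p = 2.25e-04), or 7.05-fold, and the difference between the lines was 0.14 (adjusted p = 0.863).

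The rise of Myh7 was not shared by the rest of the contractile apparatus. Of 25 measured sarcomere genes 1 rose, 0 fell and 24 were not called, and their median difference was -0.01 beside 0.00312 over all tested probe sets. Myh6 had all transgenic values below WT with a difference of -0.47 ± 0.15 (adjusted p = 0.311), at -0.23 in GlycoLo and -0.70 in GlycoHi. Tnnt2, cardiac troponin T, and Tpm1, alpha tropomyosin, also lay below WT without overlap, at -0.34 ± 0.08 and -0.89 ± 0.20, and neither was called (adjusted p = 0.159 for both). With Myh7 above and 3 members below, 16% of the sarcomere list was without overlap, against 10% of the brighter probe sets. Of 16 genes used as markers of cardiac hypertrophy, Myh7 was again the 1 that rose and 15 were not called. The natriuretic peptide genes Nppa and Nppb stood at -0.23 ± 0.15 and -0.20 ± 0.10, and the skeletal actin gene Acta1 at 0.06 ± 0.19. These members had overlapping groups.

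Sox6, a transcription factor that represses slow-fibre genes in developing skeletal muscle, fell by 1.02 ± 0.07 (adjusted p = 1.58e-04). Its level was 4.89, 5.01 and 5.18 (lowest, median and highest) in the transgenic hearts, against 6.02, 6.08 and 6.02 in the WT hearts. The lowest WT heart was above every transgenic heart, and the lines differed from WT by -0.97 in GlycoLo and -1.07 in GlycoHi. The probe set is of the kind in which some probes also match other transcripts. Sox6 was the 1 called gene of 19 cardiac transcription factors (median -0.12), of which Srf, the serum response factor, lay above WT by 0.30 ± 0.06 without overlap (adjusted p = 0.1). All other measured members had overlapping groups.

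**Figure D2:**
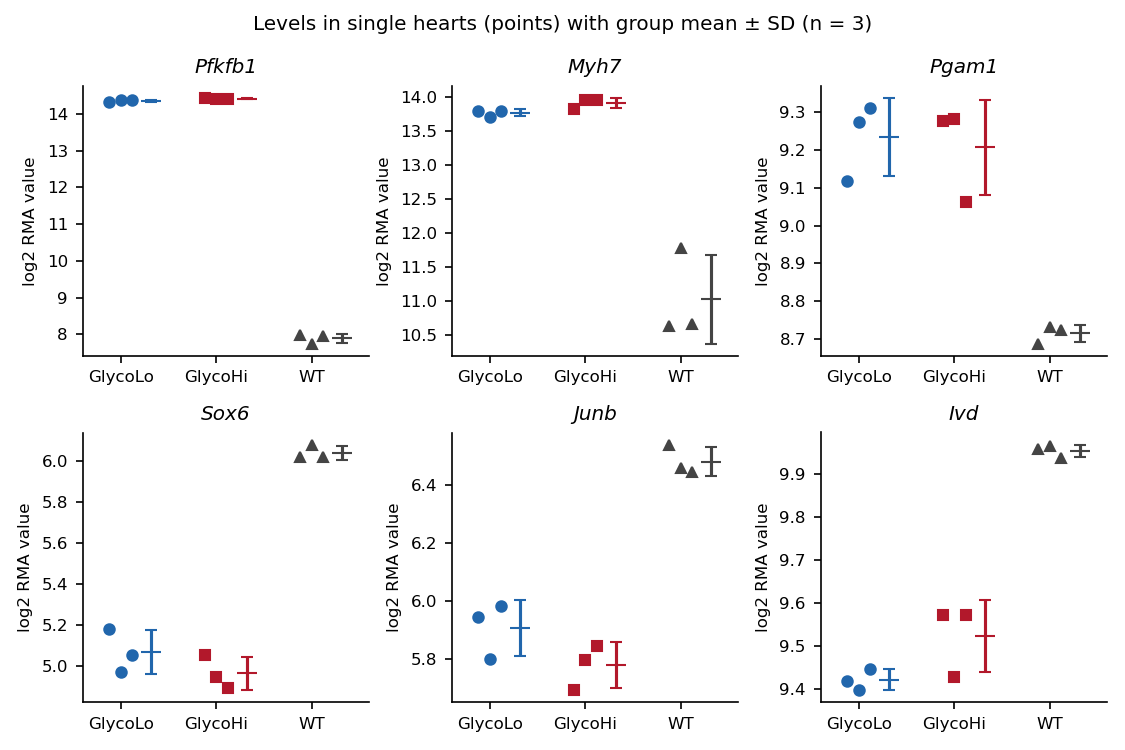
Log2 RMA values of 6 genes in single hearts of GlycoLo, GlycoHi and WT mice (points), with the mean and SD of each genotype (n = 3) beside them. Pfkfb1, Myh7 and Pgam1 are higher and Sox6, Junb and Ivd lower in all 6 transgenic hearts than in any WT heart, and for Myh7 1 WT heart stands at 11.77 while the others are near 10.64.

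Pgam1, the phosphoglycerate mutase of lower glycolysis, rose by 0.51 ± 0.07 (adjusted p = 0.029). Its transgenic values were 9.06, 9.27 and 9.31 (lowest, median and highest), against 8.69, 8.73 and 8.73 in WT. The groups did not overlap, and the lines stood close together at 0.52 in GlycoLo and 0.49 in GlycoHi. It was the 1 called gene of 22 measured genes of glycolysis and glucose or lactate transport, whose median was -0.02. Tpi1, triosephosphate isomerase, also lay above every WT heart at 0.17 ± 0.05 (adjusted p = 0.328). Hk2, the hexokinase of insulin-responsive muscle, and Pfkm, the muscle phosphofructokinase 1, stood at 0.00 ± 0.05 and -0.09 ± 0.08 with overlapping groups. Without overlap were 9.09% of the list, beside 5.27% of all probe sets and 10% of the brighter ones.

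Promoter windows from RefSeq (GRCm38.p6) were read for the called genes, as 250 bases before to 50 bases after each annotated start, and were available for 22 of the 25 genes. They were searched on both strands for an E-box (CACGTG), a cAMP response element (TGACGTCA) and a D-box (TTATGTAA). An E-box was found for 3 of the 22 genes, Pfkfb3, Tmem56 and Nrarp, and in 8.09% of 27025 genes with a window. The cAMP response element was found for 0 of the 22 and in 2.03% of all genes, and the D-box for 0 of the 22 and in 1.11%. Windows of Myh7, the largest rise outside the Pfkfb genes, and of Pgam1, the called glycolytic gene, are shown beside a window of Pfkfb3 and that of Nrarp. Each reads 5′ to 3′ on the gene's strand, with any E-box in capitals, at -53 from the start in Pfkfb3 and -108 in Nrarp.
Myh7 (chr14:54994500-54994799, minus strand): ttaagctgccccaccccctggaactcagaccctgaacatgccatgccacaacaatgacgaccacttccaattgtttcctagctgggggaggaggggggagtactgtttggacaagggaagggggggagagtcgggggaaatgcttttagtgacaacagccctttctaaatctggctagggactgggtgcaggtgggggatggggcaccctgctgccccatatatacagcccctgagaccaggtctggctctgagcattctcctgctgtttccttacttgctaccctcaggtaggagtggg
Pgam1 (chr19:41911621-41911920, plus strand): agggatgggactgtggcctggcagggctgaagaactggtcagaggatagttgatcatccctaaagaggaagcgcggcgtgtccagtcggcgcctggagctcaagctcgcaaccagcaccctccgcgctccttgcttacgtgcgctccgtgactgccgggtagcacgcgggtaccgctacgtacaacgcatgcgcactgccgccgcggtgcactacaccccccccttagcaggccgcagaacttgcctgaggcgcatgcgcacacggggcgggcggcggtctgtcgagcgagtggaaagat
Pfkfb3 (chr2:11502041-11502340, minus strand): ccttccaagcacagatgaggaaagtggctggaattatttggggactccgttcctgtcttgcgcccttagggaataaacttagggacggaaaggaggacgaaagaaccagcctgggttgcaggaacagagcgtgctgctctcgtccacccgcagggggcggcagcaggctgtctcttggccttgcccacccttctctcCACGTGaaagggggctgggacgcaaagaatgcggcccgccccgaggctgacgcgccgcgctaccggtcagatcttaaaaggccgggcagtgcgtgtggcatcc
Nrarp (chr2:25180508-25180807, plus strand): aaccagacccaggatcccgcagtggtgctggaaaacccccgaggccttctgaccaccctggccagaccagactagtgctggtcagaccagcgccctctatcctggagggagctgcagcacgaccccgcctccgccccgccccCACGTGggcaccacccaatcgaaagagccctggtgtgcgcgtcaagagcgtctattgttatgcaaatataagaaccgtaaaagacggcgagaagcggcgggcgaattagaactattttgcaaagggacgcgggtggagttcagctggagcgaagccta
Such matches are letters in a window and were not measured as sites of binding.

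Fam101a, named refilin A in current annotation and a partner of the actin crosslinker filamin, was the next largest rise at 1.12 ± 0.14 (adjusted p = 0.0213). It stood at 7.35, 7.51 and 7.13 in GlycoLo hearts and at 6.86, 6.93 and 6.86 in GlycoHi hearts, against 5.94, 5.99 and 6.03 in WT hearts. Both lines were above WT and did not overlap with each other. It was higher in GlycoLo, with a GlycoHi minus GlycoLo difference of -0.45 (adjusted p = 0.0333). Its probe set also holds probes that match other transcripts.

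The remaining single-symbol rises were between 0.50 and 0.76. Tmem56, which encodes a membrane protein with a TLC domain, rose by 0.76 ± 0.10 (adjusted p = 0.029) from a level at the 16.4th percentile of the WT arrays. Igsf1, an immunoglobulin superfamily membrane protein, had transgenic values of 7.32, 7.60 and 7.76 (lowest, median and highest), against 7.02, 6.94 and 6.86 in WT, a rise of 0.63 ± 0.09 (adjusted p = 0.0357). Cdc34, a ubiquitin-conjugating enzyme of the cell cycle, rose by 0.53 ± 0.08 (adjusted p = 0.0374). It was the 1 called member of 24 cell cycle genes (median 0.01), 23 of which were not called. Dicer1, the ribonuclease that matures microRNAs, rose by 0.50 ± 0.07 (adjusted p = 0.0344), with transgenic values of 6.66 to 6.93, against WT values of 6.24 to 6.34.

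The largest fall was that of Cmtm6, a membrane protein known for stabilising the immune ligand PD-L1. It stood at 6.44, 6.44 and 6.47 in GlycoLo hearts and at 6.05, 6.29 and 5.97 in GlycoHi hearts, against 7.44, 7.33 and 7.32 in WT hearts. Both lines were below WT and did not overlap. The pooled fall was 1.08 ± 0.11 (adjusted p = 0.0055), so that WT was 2.12-fold higher.

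Pcolce, the enhancer of the protease that trims procollagen, fell by 0.85 ± 0.07 (adjusted p = 0.00133). Its transgenic values were 8.85, 8.94 and 9.07 (lowest, median and highest), against 9.95, 9.66 and 9.76 in WT. The lowest WT heart was clearly above the highest transgenic heart. Of 35 measured extracellular matrix genes, a list that does not hold Pcolce, 0 were called and 6 lay below and 1 above every WT heart (20% without overlap, against 10% of the brighter probe sets). Thbs4, a thrombospondin and the 1 above, had the smallest p among them at 0.47 ± 0.11 (adjusted p = 0.159), followed by Sparc, a collagen-binding matrix protein, at -0.28 ± 0.07 (adjusted p = 0.181).

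Hamp encodes hepcidin, the peptide that blocks iron export and that the heart makes as well as the liver. Its level was 7.43, 7.74 and 7.88 (lowest, median and highest) in transgenic hearts, against 8.31, 8.59 and 8.49 in WT hearts. The groups did not overlap, and the fall of 0.78 ± 0.12 (adjusted p = 0.0398) came with differences of -0.90 in GlycoLo and -0.67 in GlycoHi. It was the 1 called member of 16 genes of iron handling, and liver genes such as Alb, at 3.45 in transgenic hearts and 3.51 in WT hearts on average, were low in both. Slc25a37, the mitochondrial iron importer mitoferrin 1, also lay below WT without overlap at -0.39 ± 0.10 (adjusted p = 0.190).

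Further falls were those of Dpm1, Rbm5, Nrarp, Rassf1, Rab14 and Copg2os2. Dpm1, the catalytic subunit of dolichol phosphate mannose synthase, fell by 0.91 ± 0.13 (adjusted p = 0.0343), and Rbm5, an RNA-binding regulator of splicing, by 0.63 ± 0.09 (adjusted p = 0.0343). Nrarp, an inhibitor of Notch signalling that Notch itself induces, fell by 0.52 ± 0.08 (adjusted p = 0.0477). Rassf1, a Ras-association tumour suppressor, fell by 0.51 ± 0.07 (adjusted p = 0.029), and Rab14, a GTPase of endosome and Golgi traffic, by 0.48 ± 0.07 (adjusted p = 0.0343). Each of these had all 6 transgenic hearts below WT and lines that did not differ by the test. Copg2os2, named as an opposite-strand transcript of Copg2, fell by 0.60 ± 0.08 (adjusted p = 0.029), but which strand its probes read was not tested. The 4 other single-symbol calls, chosen for mention after their values were seen, were the smaller falls of Spty2d1, a histone chaperone, Vwc2, a BMP antagonist, Sertad1, a cyclin-dependent kinase regulator, and Fuk, fucokinase, at -0.45, -0.44, -0.43 and -0.42.

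**Figure D3:**
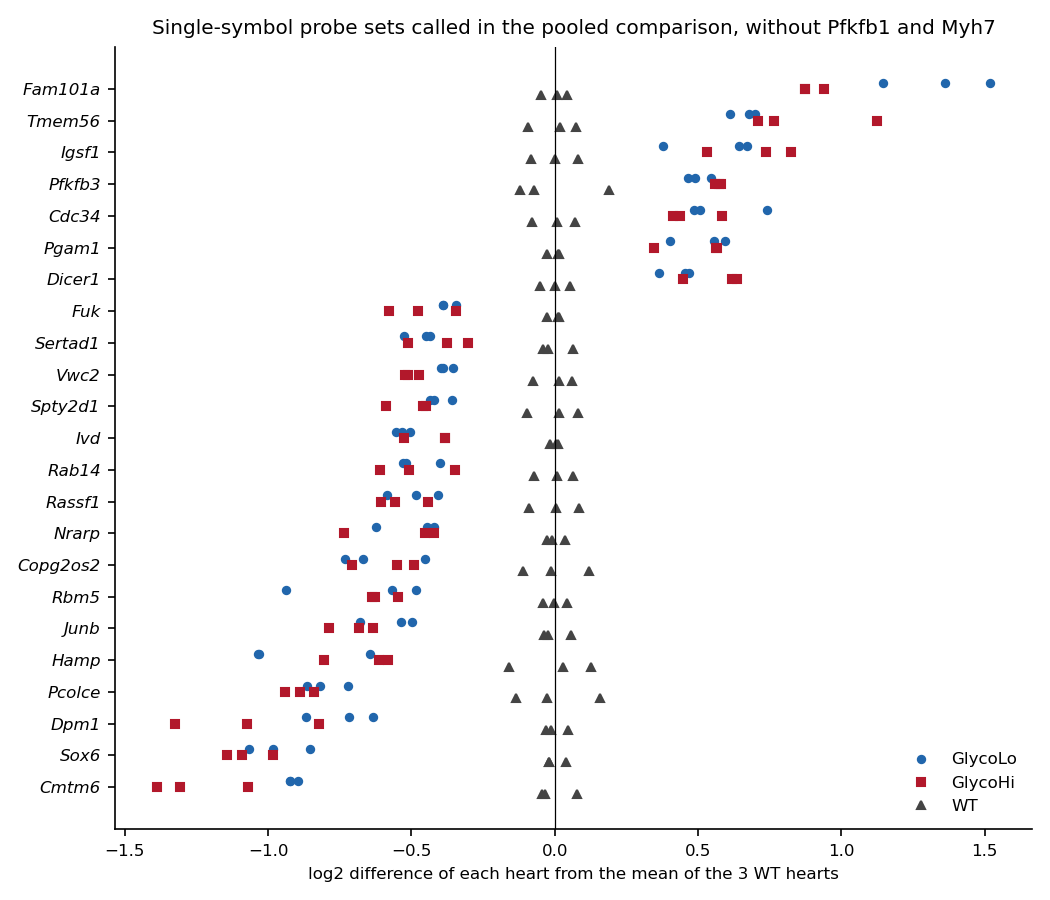
Log2 differences of single GlycoLo, GlycoHi and WT hearts from the mean of the 3 WT hearts (x axis) for the called genes with 1 symbol other than Pfkfb1 and Myh7 (rows). All transgenic points lie on 1 side of every WT point in each row, from Cmtm6 (pooled -1.08) at the bottom to Fam101a (1.12) at the top.

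Immediate early genes are transcription factors and feedback regulators switched on within minutes of a stimulus, handling of the tissue included. Of 23 measured, Junb fell, 0 rose and 22 were not called, with a median of -0.45 beside 0.00312 over all tested probe sets. Junb, a partner of Fos in the AP-1 factor, had transgenic values of 5.69, 5.82 and 5.98 (lowest, median and highest), against 6.54, 6.46 and 6.44 in WT. All transgenic hearts lay below, and the fall was 0.64 ± 0.07 (adjusted p = 0.00928), with -0.57 in GlycoLo and -0.70 in GlycoHi. In all, 10 members lay below every WT heart and 2, Fosl1 and Jund, above (52.2% without overlap, against 5.27% of all probe sets). Among the 16 brighter members 9 were without overlap, against 10% of the brighter probe sets.

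The lists themselves were chosen with earlier results of these data known, so such shares are no test. The members without overlap in these and the following lists are named after their values were seen. Beside Junb, the low members were Fos, Fosl2, Btg2, Ier2, Zfp36, Klf4, Klf2, Nr4a2 and Dusp1. Btg2 and Ier2, which restrain growth and serve early transcription, came closest to a call at -0.65 ± 0.11 and -0.45 ± 0.07 (adjusted p = 0.0618 for both). Zfp36, which destabilises inflammatory messenger RNAs, stood at -0.55 ± 0.10 (adjusted p = 0.0699), and Klf4, a zinc-finger factor of endothelium and macrophages, at -0.62 ± 0.11 (adjusted p = 0.0717). Fos had the widest gap between the lines. It was 8.17, 7.63 and 7.94 in GlycoLo hearts and 6.24, 5.96 and 6.76 in GlycoHi hearts, against 8.46, 9.38 and 8.80 in WT hearts. All WT hearts were the highest and all GlycoHi hearts the lowest, so the line difference counted as spread and Fos was not called in the pool (-1.76 ± 0.46, adjusted p = 0.219).

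Heat shock chaperones refold proteins, and their genes also respond within minutes to stress. Of 18 measured, 0 were called, the median was -0.18, and 3 lay below every WT heart (16.7%, against 10% of the brighter probe sets). Hspa8, the constitutive Hsc70, was 5.85, 6.31 and 6.59 (lowest, median and highest) in transgenic hearts, against 7.27, 7.79 and 7.26 in WT hearts. The groups did not overlap, and the difference of -1.17 ± 0.18 missed the threshold (adjusted p = 0.0527). Hspa1b, the inducible Hsp70, ranged from 7.06 over 8.64 to 10.18 in transgenic hearts, against 10.19, 11.50 and 11.03 in WT hearts, so the groups nearly met and the difference of -2.33 ± 0.51 was not called (adjusted p = 0.151). Dnajb1, the co-chaperone Hsp40, was the third at -0.80 ± 0.18 (adjusted p = 0.159). The time between death and freezing and the order of dissection are not stated in the labels, and their part in these values was not tested.

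**Figure D4:**
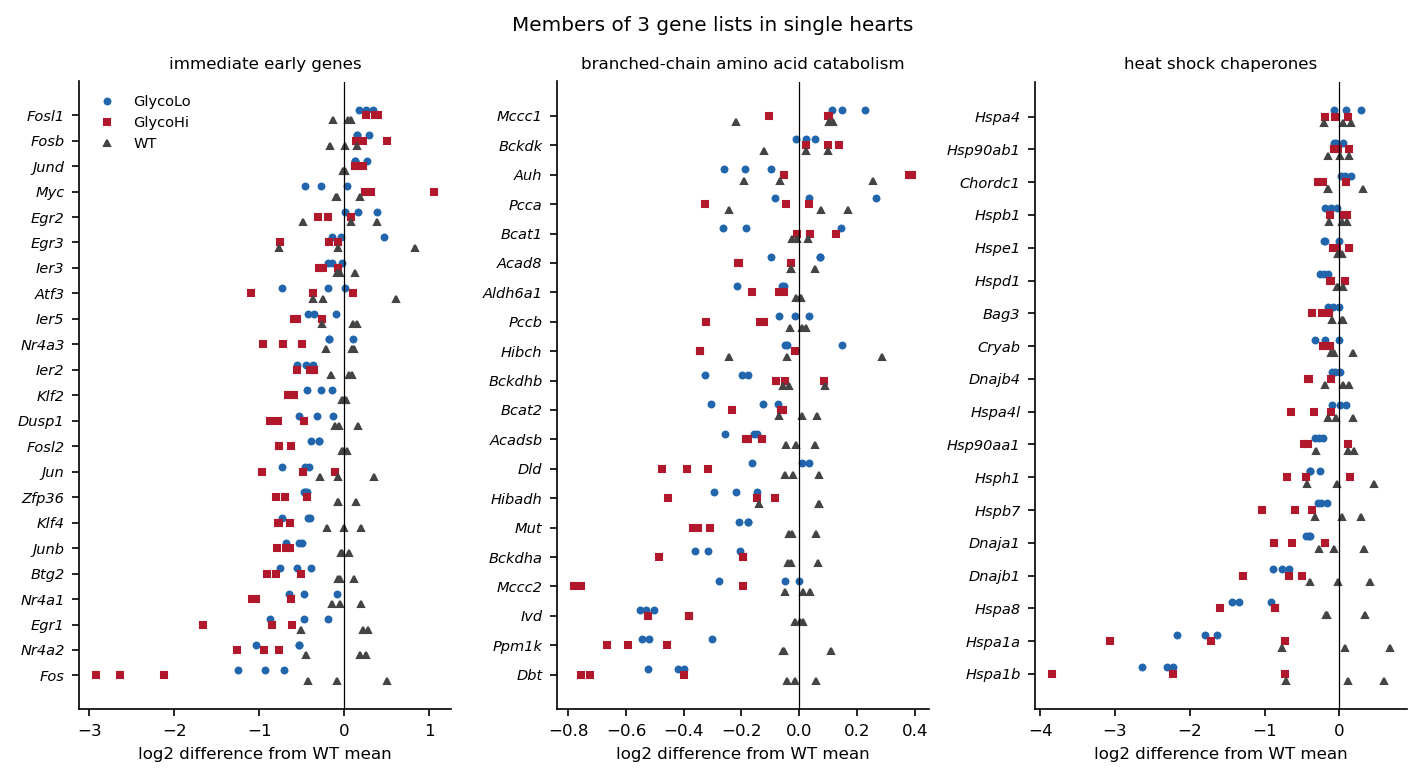
Log2 differences of single GlycoLo, GlycoHi and WT hearts from the WT mean (x axes) for all measured immediate early genes, genes of branched-chain amino acid catabolism and heat shock chaperones (rows, ordered by pooled difference). Transgenic points of Junb, Btg2, Ivd, Ppm1k, Dbt and Hspa8 lie left of every WT point, while many members near the top of each panel overlap with WT.

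Leucine, isoleucine and valine are broken down in mitochondria after a shared step at the branched-chain ketoacid dehydrogenase. Of 20 measured genes of this route, Ivd fell, 0 rose and 19 were not called, with a median of -0.13. Ivd, the isovaleryl-CoA dehydrogenase of leucine breakdown, was 9.40, 9.44 and 9.57 (lowest, median and highest) in transgenic hearts, against 9.96, 9.96 and 9.94 in WT hearts. The WT hearts were closely grouped above all transgenic hearts, and the fall was 0.48 ± 0.06 (adjusted p = 0.0262). Another 6 members lay below every WT heart (35% without overlap in all, against 10% of the brighter probe sets). Ppm1k, the phosphatase that activates the ketoacid dehydrogenase, stood at -0.51 ± 0.08 (adjusted p = 0.0527), and Dbt, its transacylase subunit, at -0.54 ± 0.09 (adjusted p = 0.0665). Bckdha, Mut, Acadsb and Aldh6a1 had smaller differences of -0.29, -0.26, -0.18 and -0.10.

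Other routes of amino acid breakdown held 0 called genes of 20, with a median of -0.14 and 5 members below WT (25%, against 10% of the brighter probe sets). Fah, the last enzyme of tyrosine breakdown, was 6.85, 7.40 and 7.83 (lowest, median and highest) in transgenic hearts, against 8.31, 8.25 and 8.27 in WT hearts. Its difference of -0.92 ± 0.17 was not called (adjusted p = 0.103), and it was lower in GlycoLo at -1.21 than in GlycoHi at -0.62 (adjusted p = 0.0230 between the lines). Oat, which degrades ornithine, stood at -0.41 ± 0.09 (adjusted p = 0.135). Gpt, an alanine transaminase, and Aldh4a1, of proline breakdown, were also below every WT heart.

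No gene of fat use was called, and the members without overlap were all lower. Of 27 genes of fatty acid uptake and oxidation 0 were called and the median was -0.12, at -0.19 in GlycoLo and -0.06 in GlycoHi. By the test 3 members differed between the lines. Below every WT heart lay 8 and above 0 (29.6%, against 10% of the brighter probe sets). These were the acyl-CoA dehydrogenases Acadvl, Acadm and Acads, the beta-oxidation enzymes Hadh, Echs1, Eci1 and Eci2, and the electron acceptor Etfa, with differences between -0.22 and -0.09. Echs1, the short-chain enoyl-CoA hydratase, had the smallest p (-0.22 ± 0.06, adjusted p = 0.260). Of 25 targets of the fatty acid receptor PPAR alpha 0 were called, with a median of -0.20, at -0.35 in GlycoLo and -0.06 in GlycoHi. By the test 6 of them differed between the lines. Below every WT heart lay 7 (28%, against 10% of the brighter probe sets). Some belong to the other fat lists, such as Acadm, Cidea and Plin2.

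Lipoprotein lipase, encoded by Lpl, frees fatty acids from circulating triglyceride at the vessel wall. Its level was 12.62, 12.67 and 12.78 (lowest, median and highest) in transgenic hearts, against 12.95, 13.01 and 13.03 in WT hearts. The groups did not overlap and the lines stood together at -0.31 in GlycoLo and -0.32 in GlycoHi, but the pooled difference of -0.32 ± 0.06 was not called (adjusted p = 0.0796). It belonged to 19 genes of lipid droplets and lipolysis with 0 calls, a median of -0.18 and 5 members below WT (26.3%, against 10% of the brighter probe sets). Dgat2, which completes triglyceride synthesis, stood at -0.36 ± 0.08, and Cidea, Plin2 and Plin3 of the droplet coat at -0.54, -0.26 and -0.26. White adipocyte markers had a summed linear level of 1255 to 2528 in transgenic hearts, against 1998 to 4573 in WT hearts, and the ranges overlapped. None of the 10 was called or without overlap, and their median was -0.24. Adipoq, the adiponectin gene, Cfd, adipsin, and Car3, a carbonic anhydrase, had the lowest differences at -1.21 ± 0.50, -1.09 ± 0.39 and -1.09 ± 0.45, while Lep, the leptin gene, at 0.10 ± 0.07, was at the 12.9th percentile of the transgenic arrays and the 10.6th of the WT arrays. Brown adipocyte markers summed to 8149 to 9167 in transgenic hearts, against 9163 to 9905 in WT hearts, with 0 of 7 called. Cox8b, in that list, is also in the oxidative phosphorylation list, so the sum does not measure brown fat alone. Ucp1, the uncoupling protein that defines brown fat, stood at -1.16 ± 0.48 with overlapping groups. Cidea, which is in the lipid droplet list as well, was the 1 without overlap (14.3%, against 10% of the brighter probe sets). The part of both cell types in the fat lists was not tested.

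Of 8 genes of ketone body use 0 were called and 2 lay below WT (25%, against 10% of the brighter probe sets). Oxct1, which activates acetoacetate for oxidation, stood at -0.27 ± 0.06 (adjusted p = 0.159), and Acat1, the next enzyme, at -0.27 ± 0.08 (adjusted p = 0.311). The mitochondrial core held no call. None of 19 TCA cycle genes was called or without overlap (median -0.08). Of 43 genes of oxidative phosphorylation 0 were called and 3 were without overlap (6.98%, against 10% of the brighter probe sets), with a median of -0.04. Ndufs4, an accessory subunit of complex I, had the smallest p there at -0.44 ± 0.09 (adjusted p = 0.129).

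**Figure D5:**
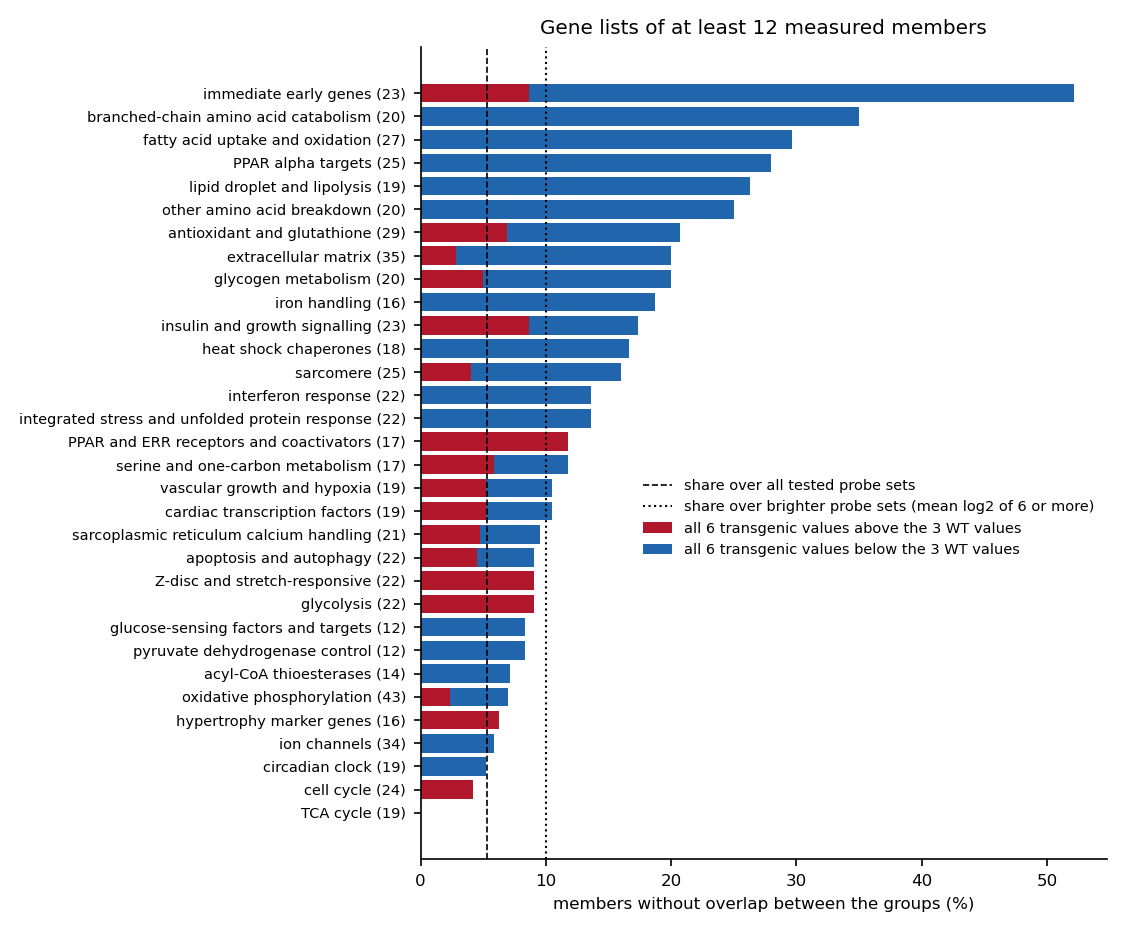
Share of measured members (x axis, %) whose 6 transgenic values all lie above (red) or below (blue) the 3 WT values, for gene lists of at least 12 measured members (rows, number measured in parentheses), with lines at the share over all tested probe sets (5.27%) and over the brighter ones (10%). Immediate early genes reach 52.2%, branched-chain amino acid catabolism 35% and fatty acid uptake and oxidation 29.6%, and the TCA cycle has 0. The lists were chosen with earlier results of these data known, and no set test was run.

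Among the lists of signalling, stress and growth no member was called beyond those described above. Pik3r1, a regulatory subunit of the insulin-responsive phosphoinositide 3-kinase, was the nearest to a call in its list at -0.72 ± 0.13 (adjusted p = 0.0928). It was 5.77, 6.22 and 6.39 (lowest, median and highest) in transgenic hearts, against 7.12, 6.67 and 6.86 in WT hearts, without overlap. Gyg, the glycogenin that primes glycogen, was above every WT heart at 0.27 ± 0.06 and Nqo1, a quinone reductase, below at -0.29 ± 0.06 (adjusted p = 0.159 and 0.122). Gyg was the 1 of 20 glycogen genes above every WT heart, while 3 lay below (20% without overlap, median -0.03). Of 29 antioxidant and glutathione genes 2 lay above and 4 below (20.7%). Both shares stand against 10% of the brighter probe sets. Ppard, the receptor PPAR delta, was above at 0.28 ± 0.06 (adjusted p = 0.159). The clock list held 0 called genes of 19 and 1 without overlap (5.26%, against 5.27% of all probe sets and 10% of the brighter ones). That member was Tef, a D-box-binding factor, at -0.54 ± 0.11 (adjusted p = 0.142). The median of each list kept its sign when the arrays were set to a common median, by cyclic loess or with an offset of 50, except the Z-disc list, at 0.00139 as deposited and -0.00352 after cyclic loess. Over all lists, 9 genes were called: Pfkfb1, Pfkfb3, Pgam1, Myh7, Cdc34, Sox6, Junb, Ivd and Hamp.

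Genes of 1 line can enter a pooled mean without being shared. By the averaged contrast, Tyr, Mthfd2, Asns, Bex1, Fos and Phgdh had the largest differences among the single-symbol genes that it called and the 2-group fit did not. Asns, asparagine synthetase, stood at 4.02, 4.06 and 4.18 in GlycoLo hearts and at 8.49, 8.18 and 8.29 in GlycoHi hearts, against 3.87, 3.87 and 4.07 in WT hearts. GlycoHi hearts were high and GlycoLo hearts were near WT, so the pooled difference of 2.27 ± 1.08 was not called (adjusted p = 0.524). The same held for Mthfd2, of mitochondrial folate metabolism, at -0.01 in GlycoLo and 4.62 in GlycoHi, for Phgdh, of serine synthesis, at 0.05 and 3.15 in the same order, and for Tyr, the tyrosinase of pigment cells, at 0.12 and 9.68.

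Bex1, a small brain-expressed protein that is also known in heart, differed from these. It was 8.92, 8.38 and 8.23 in GlycoLo hearts and 10.39, 10.05 and 10.22 in GlycoHi hearts, against 7.30, 7.21 and 6.89 in WT hearts. All 6 transgenic hearts were above WT, and GlycoHi above GlycoLo by 1.71 (adjusted p = 4.91e-04). The pooled difference of 2.24 ± 0.46 was not called (adjusted p = 0.129). Against WT in the 3-genotype fit, GlycoLo differed by 1.38 ± 0.17 (adjusted p = 0.0200) and GlycoHi by 3.09 ± 0.17 (adjusted p = 5.86e-06). These 2 comparisons share the WT arrays.

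For 182 probe sets (0.404%) the lines differed by the test and lay on opposite sides of all WT values. Fbp2, the muscle fructose-1,6-bisphosphatase that opposes glycolysis, was 6.14, 5.81 and 5.97 in GlycoLo hearts and 8.10, 8.12 and 8.09 in GlycoHi hearts, against 7.48, 7.35 and 7.40 in WT hearts. GlycoLo hearts were lowest and GlycoHi hearts highest, and the pooled difference was -0.37 ± 0.55 (adjusted p = 0.862). Aqp8, a water channel, ran the same way with -0.53 in GlycoLo and 1.11 in GlycoHi, as did Rgs7bp, an anchor of G-protein regulators, with -0.31 and 1.24 in that order. Aqp4, another water channel, ran the other way, at 0.72 in GlycoLo and -1.06 in GlycoHi.

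Markers of the cell types a heart can hold gave 0 calls in all 19 lists. Heart identity was clear from the high levels of Actc1, Myl2 and Tnni3, at 14.28, 14.31 and 13.79 in transgenic hearts and 14.29, 14.32 and 13.79 in WT hearts on average. Of the 10 cardiomyocyte markers 2, Myh6 and Tnnt2, lay below every WT heart (20%, against 10% of the brighter probe sets), as given above. The median of that list was -0.03 and its lowest difference -0.47. Skeletal muscle markers summed to 7995 to 13640 in transgenic hearts, against 7978 to 8553 in WT hearts on the linear scale, with 0 of 14 called. This list holds Ckm, which is also a cardiomyocyte marker, so the sum does not measure skeletal muscle alone. Myl1, a myosin light chain, and Casq1, a calcium store protein, lay above every WT heart at 0.59 ± 0.18 and 0.53 ± 0.14 (adjusted p = 0.300 and 0.230), and both were called by the averaged contrast (adjusted p = 0.00326 and 0.0319). Members without overlap were 14.3% of this list, beside 5.27% of all probe sets and 10% of the brighter ones. Myl1, Acta1, Tnni2 and Mybpc2 were called between the lines. The fast myosin genes Myh1, Myh2 and Myh4 were at 2.45, 3.65 and 2.70 in transgenic hearts, against 2.36, 3.67 and 2.78 in WT hearts. In whole tissue, fewer cells of a type and less RNA per cell cannot be told apart. Summed erythroid markers did not overlap, at 224.8 to 355.9 in transgenic hearts and 388.9 to 472.8 in WT hearts, with 0 of 7 called. Alas2, of red cell heme synthesis, was 1 of 2 members below every WT heart, at -0.69 ± 0.17 (adjusted p = 0.209). Those 2 were 28.6% of the list, beside 5.27% of all probe sets and 10% of the brighter ones. The lowest difference in the erythroid list was -1.04, and 1 member was called lower by the averaged contrast. The globin gene Hba-a1 stood at -0.05 ± 0.09. Pericyte sums did not overlap either, at 3195 to 3699 in transgenic hearts and 3753 to 4195 in WT hearts, again with 0 of 7 called. Macrophage sums were 3759 to 4487 in transgenic hearts and 4414 to 4637 in WT hearts. The part of these cell types in the differences described above was not tested.

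The exact permutation test of 6 against 3 hearts allows 84 arrangements and no two-sided p below 0.0238, which Myh7, Sox6, Junb, Pgam1 and Ivd each reached, so it cannot rank them. Pfkfb1, Myh7, Sox6 and Pcolce kept their calls under every alternative run. Cmtm6 and Junb lost them on omission of any single WT array (adjusted p up to 0.0668 and 0.0817). The other 15 named calls were lost in 6 to 11 of the alternatives run, with adjusted p up to 0.149 for Fam101a and 0.208 for Nrarp. Each of the 15 was lost without WT replicate 2, without WT replicate 3 and without at least 1 of the transgenic arrays. The number of calls was 7, 5 and 5 without WT replicates 1, 2 and 3, and between 9 and 25 without a single transgenic array, so it rests on each WT heart.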

How the data were processed

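The authors deposited log2 values for 45101 probe sets on 9 arrays, RMA-summarised per the file headers. A second deposited table holds the same values, which differed by at most 8.9e-16, with gene symbols. The authors' SD per probe set in it (here a score) and their log2 differences and p-values, as deposited, were not used. Per the submitters' processing notes the tools were RMA and limma, with no version named. The settings of RMA and the array annotation's build are unknown from the labels and headers. After 64 control probe sets were left out, 45037 were tested. Of these, 19760 (43.9%) carry 1 symbol, 876 several, 24 a spreadsheet date in place of a symbol, and 24377 are unnamed here. Each symbol stands for 1 listed probe set. Of the 19760 symbols, 17779 are current in RefSeq GRCm38.p6, 653 are synonyms and 1328 did not match.

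The comparison used limma 3.58.1 in R 4.3.3 (lmFit and eBayes on the values as deposited, 7 residual and 4.52 prior degrees of freedom), with the 6 transgenic hearts as 1 level and Benjamini-Hochberg adjustment over all probe sets. Differences between the lines therefore count as spread. The lines were compared with each other and with WT in a fit of 3 genotypes. The labels state 3 mice per group and name no litter, batch or day, so p-values measure the spread between these mice. Errors after levels are SDs, those after differences standard errors.

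Up to 12 rises and 12 falls with 1 symbol and no overlap were named, largest first, with the 4 Pfkfb genes. For each gene list the up to 4 called members, or else 2 members, of smallest p were picked. Not all of these picks are given in the text, such as Retsat, Epm2a, Usp18 and Kcnv2. Other list members were named after their values were seen. Also named were up to 6 genes called by the averaged contrast alone, 6 most alike between the lines (Pfkfb1, Pgam1, Copg2os2, Nrarp, Rassf1 and Rbm5) and 4 on opposite sides of WT. The comparison, members and gene lists were chosen with earlier results of these data known, and no set test was run. Replicate numbers are shared by the groups. Same-numbered arrays correlated at -0.02 to 0.12 after removal of group means, over 0.1 in 2 of 9 pairs, and arrays of other numbers at -0.11 to 0.06. The third principal component (11.8% of the variance) was positive in WT, GlycoLo and GlycoHi replicate 1, at 19.4, 10.0 and 10.1, and negative in all other arrays. The labels do not say what the numbers stand for, so they were not taken as pairs. A fit with a replicate block gave 10 calls, and a shared effect of replicate number remains possible.

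On simulated data for this comparison (45037 probe sets) the fit called 70% of 50 shifts of 0.5 in both lines and 50 of 50 at each of 1, 2 and 4. It called 0 of 100 shifts of 1 in GlycoHi alone, where the averaged contrast called 72, and 13 of 44737 unchanged probe sets. The simulated arrays had independent errors with the spread within genotypes and no line difference beyond these 100. In the real hearts many probe sets differ between the lines, so these rates need not hold there. Precision is limited by the number of arrays. Permutation tests used scipy 1.17.1 in Python 3.11.15, with tables in pandas 2.3.3 and figures in matplotlib 3.10.9.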

Additional observations from a re-analysis of the deposited data

Results flagged for a closer look

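Among the 85 genes picked for naming, not all of them given above, 2 had a transgenic heart that stood apart from the other 5. The gap over the range was above Dixon's critical value of 0.625 for 6 samples, a mark that chance gives in about 1 of 20 groups. Rbm5 was lowest in GlycoLo replicate 2, at 6.04 against 6.34 to 6.49 in the others (gap over range 0.663). Tmem56 was highest in GlycoHi replicate 2, at 4.16 against 3.64 to 3.80 in the others (0.699).

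The lines differed by the test in 14 named genes. Of these, Fam101a alone was called in the pooled comparison, with a GlycoHi minus GlycoLo difference of -0.45. Higher in GlycoHi were Tyr by 9.56, Mthfd2 by 4.63, Asns by 4.23, Phgdh by 3.10, Fbp2 by 2.13, Bex1 by 1.71, Aqp8 by 1.63, Rgs7bp by 1.54, Aldh1l2 of mitochondrial folate metabolism by 1.27, the acyl-CoA thioesterase gene Acot1 by 0.73 and Fah by 0.59. Lower in GlycoHi were Aqp4, by -1.78, and Fos, by -1.59.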

How the results depend on the processing

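The 31 pooled calls became 326 by the averaged contrast, 10 with the replicate block, 141 without dim probe sets, 91 with an offset of 50, 111 with a trended robust variance, 77 with array weights, 100 at an adjusted p under 0.1 and 14 with a 1.5-fold minimum. Scaling to a common median gave 29 (12 higher, 17 lower) and cyclic loess 38 (14 higher, 24 lower). Leaving out dim probe sets removed Pfkfb3 and Tmem56 from the test. Leaving out 1 array gave 5 to 25 calls. The 9 called list genes became 51 by the averaged contrast, 4 with the replicate block, 22 without dim probe sets, 25 with a trended robust variance and 15 with array weights, and 3 to 8 with 1 array left out. The 771 calls of GlycoHi against GlycoLo became 1537 without dim probe sets, 1271 with an offset of 50 and 1547 with a trended robust variance, 627 with the replicate block, and 375 to 651 with 1 array left out. The 2375 probe sets without overlap became 2680 to 5454, since fewer arrays overlap less. Restriction to annotated probe sets, chosen after seeing the data, gave 35 pooled calls. Of 21 named calls 4 were kept throughout, 17 were lost somewhere and 0 reversed; the cause was not tested. Probe sets near either end of the scale have compressed differences.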
